A study of Mus musculus and Homo sapiens with 12 samples.

Results

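Polycomb repressive complex 1 (PRC1) is the enzyme that attaches a single ubiquitin to histone H2A (the mark H2AK119ub), and 10 genes for its catalytic, PCGF, KDM2B and RYBP subunits were followed here: Ring1, Rnf2, Bmi1, Pcgf1, Pcgf2, Pcgf3, Pcgf5, Pcgf6, Kdm2b and Rybp. They were taken by Ensembl identifier in mouse, and the human genes of the same symbols in capitals were taken in human. This gave 20 genes of the 113122 listed, 10 of 54446 in the mouse libraries and 10 of 58676 in the human libraries, and every one of the 20 passed the filter on low counts. Chromatin-associated RNA (caRNA) had been fragmented, and fragments bound by an antibody to 5-methylcytosine (m5C-IP) were sequenced next to fragments kept out of the pull-down (Input). Mouse embryonic stem cells (mESC) and K562 cells, an established human leukaemia line, both wild type, gave 3 Input and 3 m5C-IP libraries each, 12 in all. The mESC were kept in serum with LIF, CHIR99021 and PD0325901 and had been passaged on gelatin to remove feeder cells. The growth notes give puromycin in the K562 medium. The antibody label goes against the titles in 6 libraries (no antibody in mESC IP, m5C antibody in K562 Input), so groups follow the library titles. The study calls its genome-wide replicates biological, but the labels name no separate cultures, and p-values measure the spread between these libraries, which may be technical.

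PRC1 is built on a RING1 or RNF2 (RING1B) protein, which holds the catalytic RING domain, paired with 1 PCGF protein, which sets the variant of the complex. Canonical PRC1 carries PCGF2 (MEL18) or BMI1 (PCGF4) with a CBX protein that reads H3K27me3, whereas variant complexes carry RYBP or its relative YAF2 in place of CBX and account for most H2AK119ub in embryonic stem cells. PCGF1 sits in the variant that KDM2B, through its CXXC zinc finger, brings to unmethylated CpG islands, and PCGF3 and PCGF5 define a closely related pair of variants, whereas PCGF6 works with MGA, MAX and E2F6. The mark is removed by PR-DUB, the BAP1 deubiquitinase complex.

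Depth limited the m5C-IP values more than the Input values. Counts in genes were 29007088 to 34752646 in mESC Input, 473398 to 592324 in mESC IP, 10477119 to 11865285 in K562 Input and 93110 to 111286 in K562 IP, so that 3 counts stood for up to 0.103, 6.34, 0.286 and 32.2 CPM (counts per 1000000 gene counts of the library), respectively. The K562 Input replicate 1 differed from replicates 2 and 3 by less than the sampling noise over genes (chi-square per degree of freedom 0.912 and 0.918). These libraries did differ over 20 bins of GC content (36.2 and 20.4), so they were kept as 3. Of the mESC markers fixed for the check, 7 of 8 reached 1 CPM in Input (summed 1615 to 1639 CPM), and Sox2, whose whole body is shared with Sox2ot on its strand, was at 0. Feeder fibroblast markers summed to 53.7 to 55.8 CPM, with 3 of 6 at 1 CPM or more, Col1a1 at 29.4 CPM and Lum at 0. Of the K562 markers, 7 of 8 reached 1 CPM (summed 851 to 874 CPM), with HBG2, whose body is also wholly shared on its strand, at 0. Of the other blood cell markers only PTPRC reached 1 CPM, at 74.3 CPM.

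The first comparison asked how much caRNA each subunit gene gave before the pull-down. The counts covered whole gene bodies, introns included, and respected strand, so levels are given as Input CPM per kb of gene body. In mESC, Rybp was the highest of the 10, at 8.44 ± 0.05 CPM per kb (SD, n = 3), above Pcgf2 at 6.31 ± 0.23, Pcgf1 at 3.96 ± 0.20 and Pcgf6 at 3.37 ± 0.07. Rnf2, the catalytic subunit, followed at 2.27 ± 0.04, then Pcgf3 at 1.94 ± 0.05, Kdm2b at 1.58 ± 0.03 and the second catalytic subunit, Ring1, at 1.17 ± 0.05. Bmi1 at 0.618 ± 0.065 and Pcgf5 at 0.217 ± 0.014 were the lowest, Pcgf5 being 38.9-fold below Rybp. No pair of neighbours in this order overlapped over the 3 libraries. By this level the 10 genes lay between percentile 41.3 (Pcgf5) and percentile 96.6 (Rybp) of the genes tested in mESC.

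In K562 the order was another one. RYBP was again highest, at 3.65 ± 0.13 CPM per kb, followed by PCGF1 at 2.66 ± 0.39 and PCGF3 at 2.54 ± 0.05, which overlapped each other. RING1 was at 1.68 ± 0.08 and RNF2 at 1.43 ± 0.08, without overlap, although per kb of exon RNF2 (20.8) lay above RING1 (3.92). PCGF6 was at 1.26 ± 0.01, KDM2B at 0.874 ± 0.020 and PCGF5 at 0.747 ± 0.016. PCGF2, second in mESC, was ninth here at 0.337 ± 0.025, and overlapped BMI1 at 0.276 ± 0.076. The human BMI1 value is a low estimate by construction: 8444 bp of its body lie inside COMMD3-BMI1 on the same strand, where a read cannot be given to 1 gene, and over the 1.94 kb that is its own the level was 1.47 CPM per kb. Per kb of exon instead of gene body, as first planned, every level was higher and the order was another one in both lines. Rybp (105 CPM per kb of exon) stayed highest in mESC, followed by Rnf2 (23.7), Pcgf2 (20.9) and Kdm2b (17.3), with Pcgf1 at 7.18, Pcgf5 at 1.94, Bmi1 at 1.49 and Ring1 lowest at 1.40. In K562, PCGF3 (23.7) and RNF2 (20.8) followed RYBP (32.2), and PCGF1 was at 4.04. Apart from the first place of Rybp, the orders given above thus rest on the length used. In bulk libraries, a gene used in fewer cells and a gene with less RNA per cell cannot be told apart.

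**Figure D1:**
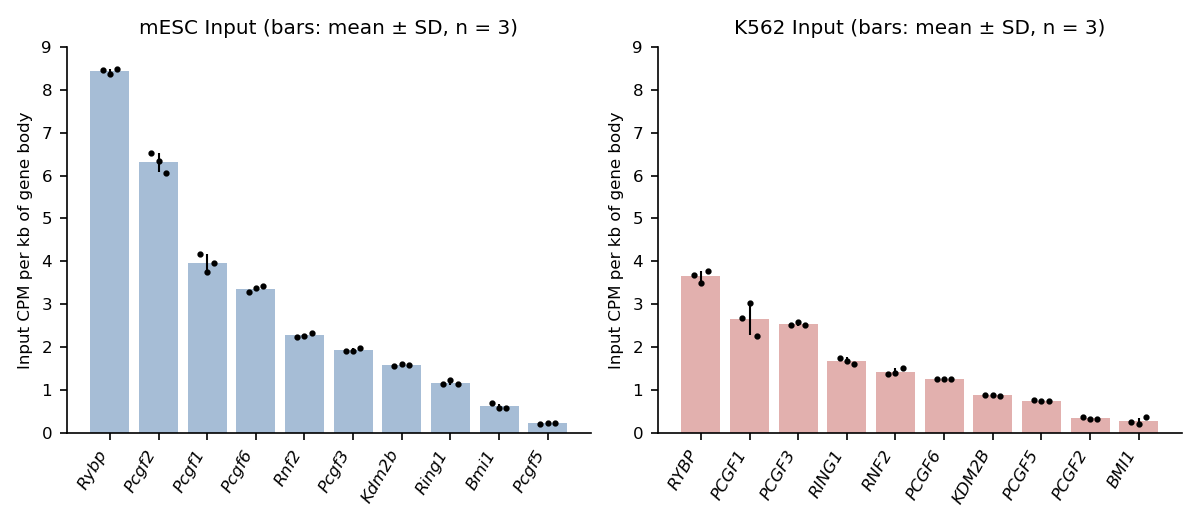
Input level of each subunit gene in CPM per kb of gene body, as bars (mean ± SD) with the 3 libraries as points, in mESC (left) and K562 (right), ordered from high to low. Rybp leads in both lines, Pcgf2 stands second in mESC (6.31) and ninth in K562 (0.337), and Pcgf5 is last in mESC (0.217).

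The next comparison asked which of these transcripts gave more or less m5C-IP signal than their Input level, in mESC. Of the 10 genes, 8 were lower and 1 was higher in IP by edgeR's quasi-likelihood test (adjusted p under 0.05, Benjamini-Hochberg over 20244 genes). Of all genes tested, 82% were called, 42% as lower and 39.9% as higher. The 10 had a median Input level of 2.11 CPM per kb, against 0.494 for all genes tested, and were not matched for it. Over all genes tested, log2 IP/Input fell with this level (Spearman's rho -0.87). The median log2 IP/Input of the 10 was -1.57, against -0.17 for all genes tested. With Input thinned to the IP depth, where 7 of the 10 and 10279 genes in all were tested, these medians were -0.067 and 0.15. The position of zero rests on the scaling. The median of all genes was 0.83 with library size alone, where 67.9% of calls were higher against 48.7% with TMM, so the log2 values of Rybp and Pcgf5 are also set against that median, which scaling moves together with them. In CPM, with no scaling beyond library size, the 3 IP libraries lay below the 3 Input libraries for 6 of the 10 genes, against 27.6% of all genes tested, and above them for 1, against 47.7%.

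Rybp, which joins the variant complexes, was lower in IP. Its Input values were 499, 494 and 500 CPM (14467, 16317 and 17360 counts) and its IP values 152, 124 and 147 CPM (72, 73 and 87 counts). All 3 IP libraries thus lay far below every Input library, and log2 IP/Input was -2.80 ± 0.09 (SE; edgeR adjusted p = 3.58e-13), or -2.63 relative to all genes. It was called lower under all 14 alternatives run, at -1.79 with library size alone and -1.48 with Input thinned.

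Rnf2 and Ring1 are the catalytic subunits. Rnf2 had 96.1, 97.3 and 99.5 CPM in Input and 73.9, 71.4 and 69.2 CPM in IP, without overlap. Its log2 IP/Input was -1.43 ± 0.15 (edgeR adjusted p = 1.72e-07). It was -0.42 (edgeR adjusted p = 0.024) with library size alone, and -0.07 (adjusted p = 0.83) when Input was thinned to the IP depth. Ring1 had 4.45, 4.78 and 4.40 CPM in Input and 0, 11.9 and 11.8 CPM in IP, from 0, 7 and 7 counts. Its IP libraries fell on both sides of Input, and its log2 IP/Input of -0.08 ± 0.52 did not pass the test (edgeR adjusted p = 0.884); without IP replicate 1 it was 0.45.

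Among the PCGF subunits, Pcgf5 was the one that rose. It had 22.9, 26.0 and 24.5 CPM in Input and 76.0, 52.7 and 101 CPM in IP, so that every IP library lay above every Input library. Its log2 IP/Input was 0.67 ± 0.21 (edgeR adjusted p = 0.00737), and 0.85 relative to all genes. This call was lost without Input replicate 1 (log2 0.62) or 3 (0.68) and without IP replicate 3 (0.43). It was also lost with the replicate block (0.64), with no filter (0.23) and with a correction for gene body GC content (0.10). With library size scaling Pcgf5 was at 1.68 and with Input thinned at 2.11, and it was called higher in both. Pcgf3, its closest relative, moved the other way, from 87.7, 87.1 and 91.0 CPM in Input to 16.9, 57.8 and 23.6 CPM in IP. IP replicate 2 was the highest of the 3 but stayed below Input, and log2 IP/Input was -2.36 ± 0.23 (edgeR adjusted p = 1.27e-07), lower under all 14 alternatives run. It was -3.05 without IP replicate 2, where Rybp was at -2.68. With library size alone Pcgf3 was at -1.36, and with Input thinned at -0.99.

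Both PCGF subunits of canonical PRC1 fell. Pcgf2 went from 70.9 to 76.2 CPM in Input to 38.0 to 51.0 CPM in IP, a log2 IP/Input of -1.71 ± 0.18, and Bmi1 went from 5.50 to 6.65 CPM to 1.70 to 4.22 CPM, a log2 of -1.94 ± 0.55 (edgeR adjusted p = 0.00406) from 5 IP counts in all. With library size scaling Bmi1 was at -0.94 and was not called, and with Input thinned Pcgf2 was at -0.33 and was not called. Pcgf1 fell from 11.2 to 12.4 CPM to 3.40 to 6.34 CPM (8 IP counts), a log2 of -2.26 ± 0.43 (edgeR adjusted p = 1.41e-04). With library size alone Pcgf2 was at -0.70 and Pcgf1 at -1.25, both called lower.

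Pcgf6 and Kdm2b were called lower without a separation in CPM. Pcgf6 had 56.9 to 59.2 CPM in Input and 44.4, 81.6 and 43.9 CPM in IP (log2 -0.99 ± 0.20). Kdm2b had 185, 191 and 189 CPM in Input and 144, 165 and 349 CPM in IP (log2 -0.72 ± 0.17), with 207 of its 372 IP counts in replicate 3. For both, the direction turned with the scaling, to 0.013 for Pcgf6 and 0.29 for Kdm2b with library size alone, and Kdm2b was called higher (0.67, edgeR adjusted p = 0.034) when Input was thinned. DESeq2 gave -0.58 for Kdm2b and did not call it (adjusted p = 0.14). Their direction against Input thus rests on the scaling.

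**Figure D2:**
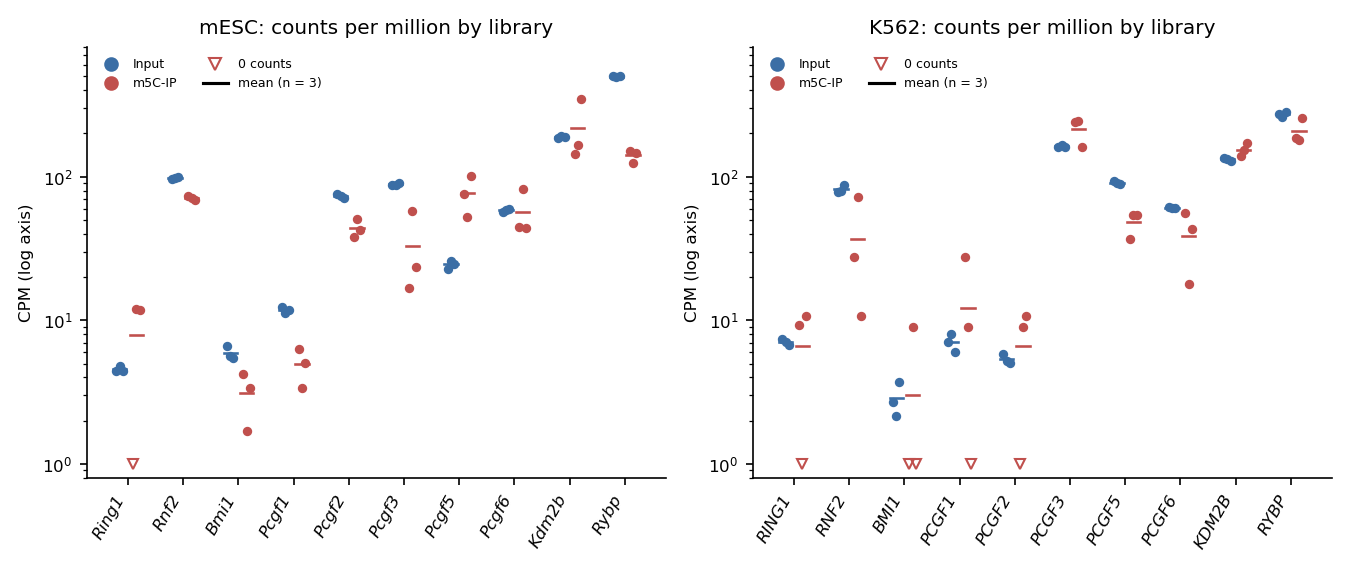
CPM of each subunit gene in each library on a log axis, for mESC (left) and K562 (right), with Input in blue, m5C-IP in red, horizontal bars for the means of 3 libraries and open triangles at the foot for libraries with 0 counts. Rybp and Pcgf3 lie lower in every mESC IP library, and Pcgf5 lies higher in every one. In K562, the IP libraries of RING1, BMI1, PCGF1 and PCGF2 spread from 0 to at most 27.8 CPM.

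Input level moved with log2 IP/Input over all genes tested in mESC, where Spearman's rho between log2 IP/Input and Input CPM per kb was -0.87 over 20237 genes; Input enters both measures, and genes share the libraries. Over the 10 subunit genes rho was -0.62 (Pearson's r -0.63), with Rybp at the high end of level and the low end of log2 IP/Input and Pcgf5 at the other ends of both. In K562 rho was -0.34 over 14459 genes and 0.14 over the 10. Gene body GC content gave rho 0.82 over the 10 genes in K562 (r 0.80) and 0.31 in mESC, against 0.23 and 0.06 over all genes tested. The K562 values over the 10 include RING1 and PCGF2 with 2 IP counts each, BMI1 with 1 and PCGF1 with 4, whose log2 values are poorly set. These are descriptions over few genes, and the part of level and GC content in the results was not tested.

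The authors' peak lists for the mESC IP libraries held 11146, 15404 and 15797 peaks in replicates 1 to 3. Peaks lay in 2 of the 10 subunit genes, Kdm2b with 2 and Pcgf3 with 1, against 41.2% of all genes tested holding at least 1 peak (61.4% of genes with a body of at least 30.1 kb, the members' median). All 3 came from replicate 2, were 150 bases wide, lay in introns and were recorded on the strand opposite to the gene; over the whole lists, 40.5% of peaks inside genes of 1 strand were recorded on the gene's strand. The Kdm2b libraries did not follow them, since IP replicate 3, with most Kdm2b counts, had no peak there. No region shared by 2 or more replicates lay in these genes, so the 3 windows are shown as the entries of the lists in these genes and not as replicated m5C sites. They are given from GRCm38, read on the strand of the gene, with CG dinucleotides in capitals. The Pcgf3 peak at chr5:108462280-108462429 is centred 1122 bases into the gene and has 51.3% GC. The Kdm2b peaks at chr5:122956287-122956436 and chr5:122891028-122891177 are centred 33462 and 98721 bases into the gene and have 55.3% and 40.7% GC.
Pcgf3 intron: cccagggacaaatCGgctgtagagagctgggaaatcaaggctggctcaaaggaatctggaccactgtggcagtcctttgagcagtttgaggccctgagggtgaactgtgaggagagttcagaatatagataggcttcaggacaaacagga
Kdm2b intron, nearer the start: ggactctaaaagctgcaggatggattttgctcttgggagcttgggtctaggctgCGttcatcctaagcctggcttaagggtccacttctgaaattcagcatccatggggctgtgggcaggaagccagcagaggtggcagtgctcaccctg
Kdm2b intron, farther from the start: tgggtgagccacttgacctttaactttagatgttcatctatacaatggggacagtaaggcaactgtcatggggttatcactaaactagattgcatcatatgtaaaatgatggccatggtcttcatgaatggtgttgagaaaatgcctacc
The first 2 hold 1 CG each and the third none, whereas 85.3% of the 32046 peaks of this width hold at least 1 CG; CG reads the same on both strands. Repeat-masked bases made up 7.33%, 0% and 13.3% of the 3 windows.

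The same question was asked in K562, where the IP libraries held fewer counts. Here 3 of the 10 genes were lower in IP and none was higher (edgeR, adjusted p under 0.05). Of the 14522 genes tested, 31.5% were called, 16.4% as lower and 15.1% as higher. At an unadjusted p under 0.05, 4 were lower and 0 higher. The share of all genes at that threshold was not taken, so no excess can be read from this count. DESeq2 called 3 lower and 0 higher, and called 29.1% of all genes, of which 64.8% were higher. The median log2 IP/Input of the 10 was -0.19, against -0.16 for all genes tested. In CPM the IP libraries lay below Input for 4 genes, against 24.4% of all genes, and above Input for 1, KDM2B, against 22.4%.

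RNF2 fell from 78.0, 79.4 and 86.9 CPM in Input to 27.8, 71.9 and 10.7 CPM in IP, from 3, 8 and 1 counts. Its log2 IP/Input was -1.29 ± 0.36 (edgeR adjusted p = 0.00239); it was -0.89 (adjusted p = 0.1) without IP replicate 3 and -2.25 without IP replicate 2. PCGF5 fell from 92.8, 90.2 and 89.1 CPM to 37.1, 53.9 and 53.7 CPM, a log2 of -1.12 ± 0.32 (edgeR adjusted p = 0.00300); the call was lost with the exonic GC correction (-0.76) and without IP replicate 1 (-0.96). RYBP fell from 275, 262 and 281 CPM to 185, 180 and 258 CPM, a log2 of -0.62 ± 0.18 (edgeR adjusted p = 0.00296). That call was lost with library size scaling (-0.35), with both GC corrections (-0.39 and -0.36) and without IP replicate 2 (-0.54). It was also lost with Input thinned to the IP depth (-0.52, edgeR adjusted p = 0.11). For these 3 genes no IP library reached the lowest Input library.

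The other 7 did not pass the test. PCGF3 had 162, 167 and 161 CPM in Input and 241, 243 and 161 CPM in IP, so that 2 of 3 IP libraries lay above Input; its log2 IP/Input of 0.21 ± 0.18 was called higher only with library size scaling (0.48, edgeR adjusted p = 0.046). KDM2B had 130 to 135 CPM in Input and 139 to 172 CPM in IP, with a log2 of 0.0019 ± 0.21. PCGF6 had 60.4 to 61.2 CPM in Input and 18.0 to 55.6 CPM in IP (log2 -0.87 ± 0.37, edgeR adjusted p = 0.064); it was called lower with no filter (-1.21, edgeR adjusted p = 0.00698) and with the gene body GC correction (-0.93, adjusted p = 0.0431). PCGF1 had 4 IP counts (log2 0.65 ± 0.84). RING1 and PCGF2 had 2 IP counts each and BMI1 had 1, so only ratios of pooled values with exact 95% Clopper-Pearson intervals are given. For these, counts were summed over the 3 libraries of a group and divided by their summed library sizes. IP over Input was 0.900 (0.108 to 3.29) for RING1, 1.19 (0.143 to 4.37) for PCGF2 and 1.13 (0.0283 to 6.45) for BMI1. These intervals cover only counting error, since pooling leaves out the spread between libraries. The reads also carry no molecular identifiers. A difference within them was not detectable at this depth.

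**Figure D3:**
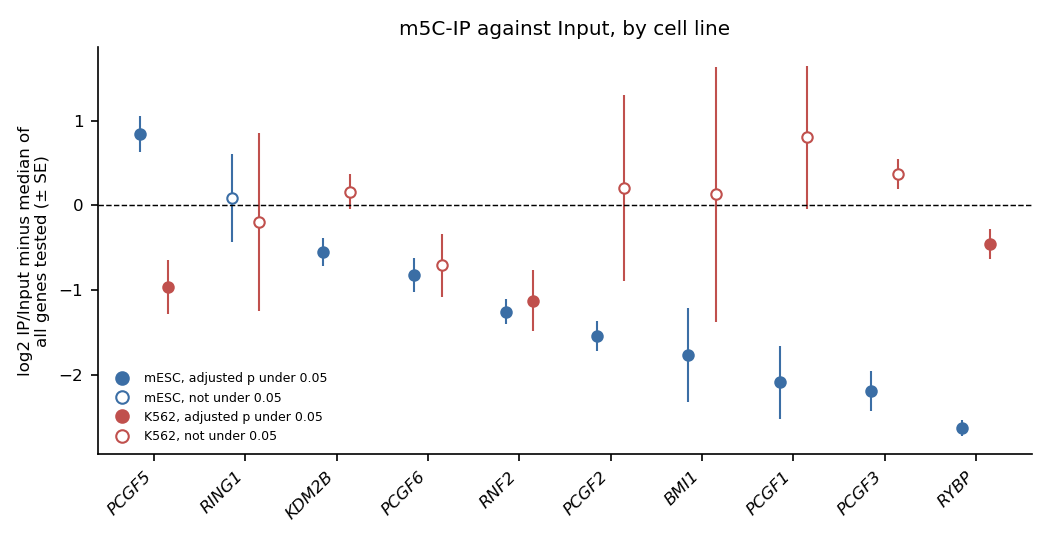
log2 IP/Input of each subunit gene minus the median of all genes tested in that cell line, with SE bars, for mESC (blue) and K562 (red), filled where the adjusted p was under 0.05 (n = 3 libraries a group). Genes run from the highest to the lowest mESC value; PCGF5 is the only gene called higher in mESC (0.85 above the median), and it is called lower in K562 (-0.96).

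Whether the pull-down acted differently on these genes in the 2 cell lines was tested in 1 fit of the 12 libraries, by the term in which cell line and IP interact. Of the 10 genes, 3 differed, PCGF3 and RYBP with a higher IP/Input in K562 and PCGF5 with a lower one (edgeR, adjusted p under 0.05). Of the 14242 genes tested, 30.9% were called, 16.5% as higher in K562 and 14.5% as lower. The median difference of all genes was 0.17 with TMM and -0.27 with RLE scaling, where 35.3% of calls were higher against 53.2%, so each value is followed by the one relative to that median. PCGF3 differed by 1.94 ± 0.36 (adjusted p = 9.89e-05; 1.77 relative), PCGF5 by -2.43 ± 0.41 (adjusted p = 3.18e-05; -2.60 relative) and RYBP by 1.55 ± 0.27 (adjusted p = 5.24e-05; 1.38 relative). The joint fit sets its own scaling, so these values are not the plain differences of those given above for each line. All 3 calls kept their direction and passed under each of the 21 alternatives run, in which the relative values ran from 1.48 to 2.46 for PCGF3, from -3.33 to -2.32 for PCGF5 and from 1.10 to 1.59 for RYBP. The lines also differ in species, medium and IP depth, and these cannot be told apart.

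The remaining 7 did not pass, and their estimates are wide. PCGF1 was at 2.27 ± 1.12 (edgeR adjusted p = 0.128), and at 0.89 without K562 IP replicate 1. BMI1 was at 1.27 ± 1.93, PCGF2 at 1.12 ± 1.32 (4.10 with Input thinned) and RING1 at -0.91 ± 1.20. PCGF6 was at -0.51 ± 0.53 and RNF2 at -0.50 ± 0.52. KDM2B was at 0.088 ± 0.41 and changed sign with scaling.

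**Figure D4:**
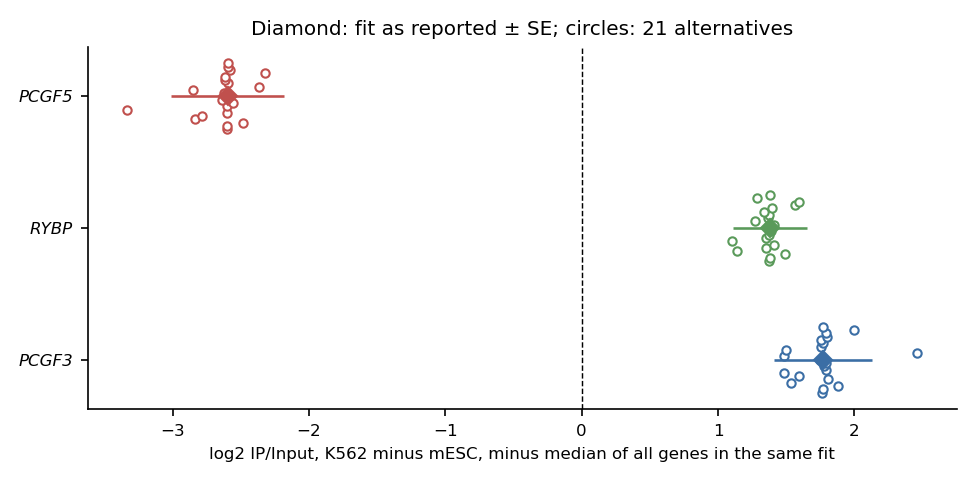
Difference in log2 IP/Input between K562 and mESC for the 3 genes that passed the interaction test, minus the median of all genes in the same fit; diamonds with SE bars are the values as reported and circles the 21 alternatives. PCGF5 stays between -3.33 and -2.32, and RYBP and PCGF3 stay above 1.10.

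Related subunits were then compared within each library, where library size and scaling cancel except at low counts. For 5 pairs, the log2 ratio of counts per base of gene body (with 0.5 added to each count) was set against IP or Input and against the cell line, 15 contrasts in all. At counts near 0 that addition makes the ratio depend on depth. An exact two-sided permutation test of 3 libraries against 3 cannot give a p below 0.1, and the values are therefore descriptions of separation. Of the 15 contrasts 8 separated and had that p, which came to 0.1875 when adjusted over the 15.

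Pcgf3 over Pcgf5 gave the clearest pattern. In mESC the log2 ratio was 3.24, 3.04 and 3.19 in Input and -0.80, 1.43 and -0.76 in IP, a difference of -3.20, or 9.20-fold. In K562 it was 1.72, 1.80 and 1.77 in Input and 3.47, 3.00 and 2.41 in IP, a difference of 1.20, or 2.29-fold. Both contrasts separated without overlap (exact permutation p = 0.1, adjusted 0.1875), in opposite directions. In Input itself the ratio was 2.63-fold lower in K562 than in mESC, also without overlap.

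Ring1 over Rnf2 was below 1 in every mESC Input library (log2 -0.96 ± 0.08, SD, n = 3) and at 0.25 ± 0.14 in K562 Input, 2.30-fold higher (exact permutation p = 0.1, adjusted 0.1875). The side of 1 on which the K562 ratio lay rests on the use of gene body length; the difference between the lines was 1.20 on the log2 scale with it and 1.67 with exon length. In IP the ratio spread too widely to be placed against Input, from -2.68 to 1.00 in mESC and from -0.33 to 3.76 in K562. The lowest value in each line came from a library with 0 counts of Ring1 or RING1. Pcgf2 over Bmi1 was 10.2-fold in mESC Input and 1.24-fold in K562 Input, without overlap; the human value counts BMI1 over its whole body, and over unshared body lengths the difference between lines was -5.46 in place of -3.04. In IP this ratio overlapped Input in both lines. PCGF2 and BMI1 both had 0 counts in K562 IP replicate 1, so that the value there came from the gene lengths alone.

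Pcgf1 over Pcgf6 was lower in mESC IP than in Input (difference -0.97, from 8 Pcgf1 IP counts). It was higher in K562 Input than in mESC Input (0.84). Both separated without overlap (exact permutation p = 0.1, adjusted 0.1875), although per kb of exon the second difference turned to -1.63. Kdm2b over Pcgf1, the subunits that meet in 1 variant, was higher in mESC IP than in Input, without overlap. That difference, 1.16, came from the same 8 Pcgf1 IP counts. Kdm2b over Pcgf1 overlapped between the lines in Input (difference -0.28, exact permutation p = 0.2, adjusted 0.333) and between IP and Input in K562.

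**Figure D5:**
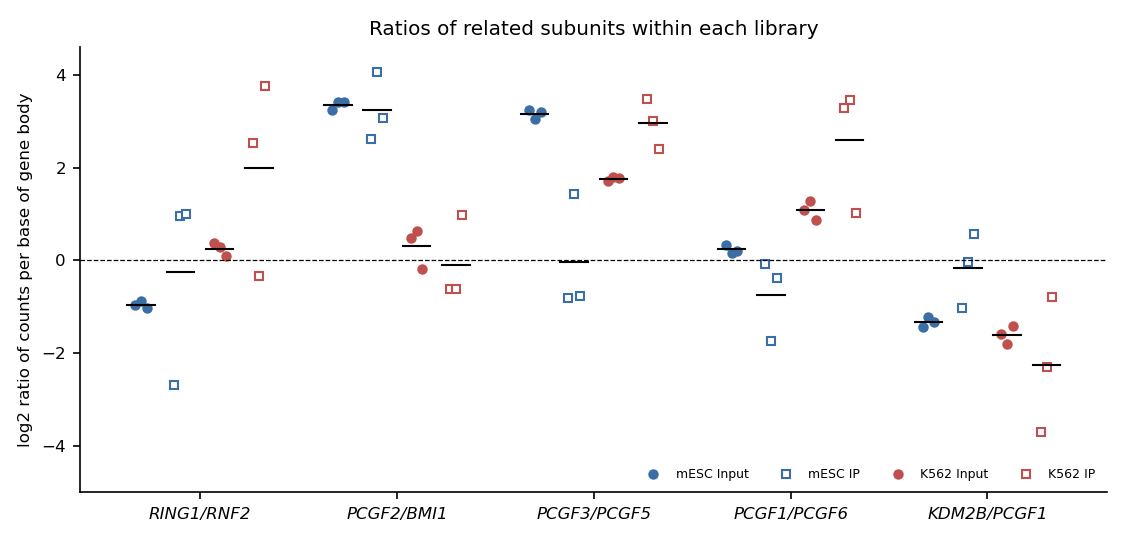
log2 ratio of counts per base of gene body for 5 pairs of subunits in each of the 12 libraries, with Input as filled circles, m5C-IP as open squares, mESC in blue, K562 in red and black bars for the means of 3 libraries. PCGF3/PCGF5 drops from Input to IP in mESC (3.16 to -0.04) and rises in K562 (1.76 to 2.96).

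Overlapping genes touch some of these values. PCGF3-AS1 covers 9888 bp of human PCGF3 on the other strand and had 6814 Input and 56 IP counts. The noncoding gene Gm44574, inside mouse Kdm2b on the same strand, had 36 Input and 34 IP counts. Rnf34 and RNF34 overlap Kdm2b and KDM2B on the other strand (627 and 1528 bp). How far reads cross between such partners was not tested.

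The genes whose CPM over the 12 libraries lay nearest to Rnf2, by Euclidean distance on the log2(CPM + 0.5) scale among 14241 genes, were NRIP1 (1.16) and SNX24 (1.44), against a median distance of 10.6. For Ring1 they were MFAP3L (2.57) and PLPP5 (2.92), against 11.9.

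Partners of the core in canonical and variant complexes were taken from a list of 31 genes (CBX, PHC and SCM proteins, YAF2, BCOR and USP7, MGA, MAX, L3MBTL2 and E2F6, AUTS2, FBRS and casein kinase 2 among them). In mESC 29 were tested, and 21 were lower and 3 higher in IP (42% and 39.9% of all genes), with a median log2 IP/Input of -1.69 (-0.17 for all genes). In K562 30 were tested, and 8 were lower and 4 higher (16.4% and 15.1% of all genes), with a median of -0.33 (-0.16 for all genes). By the fixed rule, the mESC genes that fell most were Skp1a (-2.80 ± 0.24), a subunit of the KDM2B complex, Phc3 (-2.64 ± 0.17), a Polyhomeotic protein of canonical PRC1, and Cbx3 (-2.51 ± 0.22), a chromodomain protein of the PCGF6 complex. Of those that rose only 2 passed the rule, Bcor (0.60 ± 0.13), which binds PCGF1, and E2f6 (0.81 ± 0.28), a DNA-binding partner of PCGF6. Bcor had 49.6 to 54.3 CPM in Input and 144 to 162 CPM in IP, and E2f6 8.89 to 11.2 CPM in Input and 23.2 to 39.1 CPM in IP.

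In K562 the partners that fell most were E2F6 (-1.69 ± 0.52, from 5 IP counts), PHC3 (-1.12 ± 0.23) and CSNK2A1 (-1.09 ± 0.25), a casein kinase 2 subunit. Those that rose were AUTS2 (3.70 ± 0.64), which joins PCGF3 and PCGF5 complexes, CBX8 (1.61 ± 0.56), a reader subunit, and BCORL1 (0.53 ± 0.19), a relative of BCOR. AUTS2 had 2.08 to 2.67 CPM in Input and 27.0 to 46.3 CPM in IP, from 11 IP counts; its Input mean of 2.34 CPM is under the 5 CPM of the rule, which it met through IP, so its place among the named genes is no support for its rise. In the test of the difference between lines, E2F6 differed by -3.13 ± 0.60 (K562 minus mESC; edgeR adjusted p = 1.53e-04), BCOR by -1.53 ± 0.19 (adjusted p = 2.61e-07) and AUTS2 by 4.81 ± 0.90 (adjusted p = 1.16e-04), whereas PHC3 differed by 0.88 ± 0.40 (adjusted p = 0.094) and CSNK2A1 by 0.77 ± 0.44 (adjusted p = 0.196). Of 30 partners in this test, 11 had a higher and 7 a lower IP/Input in K562, against 16.5% and 14.5% of all genes tested.

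On the opposing side, 12 genes for removal of H2AK119ub (BAP1, the ASXL, MBD5 and MBD6, FOXK, HCFC1, OGT and KDM1B proteins of PR-DUB, and USP16) gave 10 lower and 1 higher of 12 tested in mESC, where 42% and 39.9% of all genes were called, with a median log2 IP/Input of -1.75 (-0.17 for all genes). In K562 they gave 5 lower and 1 higher of 11 tested, where 16.4% and 15.1% of all genes were called, with a median of -0.32 (-0.16 for all genes). Of 4 reader genes (JARID2, AEBP2, RSF1 and DNAJC2), 4 were lower in mESC (median -1.83) and 3 in K562 (median -0.70), against the same shares and medians of all genes, and none was higher. The partner, removal and reader lists were not matched to all genes for Input level and were taken without the alternatives. For the members tested in mESC with Input thinned, the median was -0.067 against 0.15 for all genes.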

How the data were processed

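The 12 libraries were wild-type mESC and K562 caRNA, 3 Input and 3 m5C-IP each, grouped by title. The authors deposited raw counts per gene for each library and a peak list for each mESC IP library, with positions and strand and no usable score. According to the study's methods, reads were trimmed (Trimmomatic 0.39), aligned with HISAT2 2.1.0 to mm10 or hg38 with spike-ins and cleared of duplicates with Picard, and peaks were called per library and strand with MACS2, with fragments extended to 150 bp. For gene counts the RNA-seq methods name HTSeq, and the m5C methods name no tool; the deposited counts end in HTSeq's summary lines, which held 19.0% to 19.3% (mESC Input), 71.4% to 71.7% (mESC IP), 26.0% to 26.2% (K562 Input) and 60.7% to 61.4% (K562 IP) of records and stayed out of library sizes.

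How the counts were made was checked on nested genes that share no exon with their host. On the host's strand, 1883 of 1884 in mESC and 1043 of 1051 in K562 had 0 Input counts, against 44.4% and 52.8% on the other strand. Counts thus cover gene bodies and use strand, and reads in shared stretches of 1 strand are dropped. Levels were therefore divided by gene body length in place of the exon length fixed beforehand. Positions came from GENCODE M21 (GRCm38) and 44 (GRCh38), with 99.9% and 99.2% of identifiers matched; peak sequences came from RefSeq's GRCm38 genome.

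The test was edgeR's (version 4.0.16, R 4.3.3; quasi-likelihood, TMM scaling, filterByExpr, Benjamini-Hochberg at 0.05) in each line, and as the interaction over 1-to-1 symbols in all 12 libraries. SE is the absolute log2 value divided by the square root of F. edgeR's common coefficient of biological variation came to 0.0583 for mESC, 0.00988 for K562 and 0.0208 for the joint fit. The K562 value is shared by Input and IP, whose replicates spread differently. Chi-square divided by its degrees of freedom was 0.912 to 1.03 between K562 Input libraries and 1.17 to 1.21 between K562 IP libraries. The K562 IP libraries thus spread somewhat more than counting error, which the common value does not show. Library spike-ins were not used here, and values are relative. The fits were tested on simulated data before use. Changes were planted there only in genes with higher expected IP counts than most K562 members had. That test thus does not cover the fits at such low counts.

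Alternatives were RLE scaling, library size alone, no filter, DESeq2 1.42.0, GC correction (limma 3.58.1 was loaded with edgeR), Input thinned to IP depth, a replicate block, each library left out, and K562 Input summed as 1 library; gene body GC content and gene body lengths were added after seeing the data. All 10 members were described. Partners were named by rule: of those called with IP and Input separate in CPM and averaging 5 CPM or more, the 3 highest and 3 lowest by log2 IP/Input. The members, lists and rules were chosen with earlier results of these data known.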

Additional observations from a re-analysis of the deposited data

Results flagged for a closer look

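The effect of the pull-down differed between mESC and K562, by the interaction test over 12 libraries (edgeR quasi-likelihood test, Benjamini-Hochberg), for 3 of the 10 subunit genes, against 30.9% of all genes tested called in either direction. The difference in log2 IP/Input, K562 minus mESC, was 1.94 for PCGF3, -2.43 for PCGF5 and 1.55 for RYBP. Fitted separately, with a scaling of its own for each line, log2 IP/Input was -2.36 in mESC and 0.21 in K562 for PCGF3. For PCGF5 it was 0.67 and -1.12, and for RYBP it was -2.80 and -0.62. These separate values do not subtract to the joint differences, because the joint fit sets its own scaling over the 12 libraries. PCGF5 was the 1 gene called in opposite directions in the 2 lines, although its mESC call was lost under 6 of 14 alternatives and its K562 call under 2 of 14. Species, medium and IP depth differ with the line and cannot be told apart.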

How the results depend on the processing

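Leaving out any 1 library kept 8 members lower in mESC and 2 to 3 lower and 0 higher in K562. It kept 2 higher and 1 lower in the interaction, whereas the 1 member higher in mESC (Pcgf5) became 0 to 1. The share of all genes called then ran from 75.3% to 79.2% in mESC and from 24.5% to 30.9% in K562. In the interaction it ran from 23.4% to 33.1%. The count of mESC members lower was 5 with library size scaling and 2 with Input thinned (7 members tested). The count higher was 2 with Input thinned and 0 with no filter, the gene body GC correction and the replicate block. Of all mESC genes tested, 72.9% were called with library size scaling and 59.3% with Input thinned. The share was 64.3% with no filter, 85% with the gene body GC correction and 76.2% with the replicate block. In K562, 1 was lower with the exonic GC correction, 0 with Input thinned (3 members tested) and 4 with no filter, which adds PCGF6. With library size scaling 1 was higher. The shares of all K562 genes called in these settings were 32.6%, 16.2%, 26% and 25.3%, respectively. The numbers shared by replicates did not pair the libraries (correlations of deviations from -0.044 to 0.03), so the block is only a value; it gave Pcgf5 in mESC 0.64 (adjusted p = 0.072) and changed no other member's call. With Input thinned, Ring1, Bmi1 and Pcgf1 could not be tested in mESC.

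Some values changed sign. In mESC, Ring1 was 0.086 with RLE, 0.92 with library size and 0.092 with DESeq2 (-0.42 to 0.45 with a library left out), Pcgf6 was 0.013 with library size and 0.33 thinned, and Kdm2b was 0.29 and 0.67. In K562, BMI1 was 0.088 (RLE), 0.24 (library size), 0.19 (DESeq2), 0.21 (exonic GC) and 0.023 (gene body GC); PCGF2 was -0.30 (no filter), -0.35 and -0.45 (exonic and gene body GC); PCGF3 was -0.14 (no filter) and -0.28 (gene body GC); and KDM2B was -0.34, -0.36 and -0.34 under the same 3 settings and -0.0033 with Input as 1 library. With a library left out, K562 ranges were -0.84 to 0.26 (RING1), -7.28 to 0.58 (BMI1, 0 IP counts in its low fit, so no bound), -0.74 to 1.16 (PCGF1), -0.43 to 0.65 (PCGF2) and -0.064 to 0.071 (KDM2B). The difference between lines for KDM2B was -0.35 (RLE), -0.23 (library size), -0.32 (DESeq2) and -0.58 (both GC corrections), and with a library left out -0.11 to 0.59; for BMI1 it was -6.42 to 1.88. PCGF1/PCGF6 in Input was -1.63 with exon length, shared or not; PCGF2/BMI1 in mESC ran from -0.51 to 0.21 and KDM2B/PCGF1 in K562 from -1.39 to 0.057 with a library left out. Peaks in members were 3, and 0 on the gene strand, 0 in exons, 0 in regions of 2 or of all 3 replicates, and 0 to 3 with a replicate left out. The cause was not tested, except that thinning tests fewer genes. Over all genes, calls went from 16590 to 6092 (mESC) and from 4407 to 1857 (interaction) with Input thinned, and in K562 from 4576 to 519 thinned, 8237 with no filter and 3026 with Input as 1 library; with library size scaling, 70.2% of K562 calls were higher against 47.9%, and 39.9% of interaction calls against 53.2%.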
